A study of Macaca mulatta with 38 samples.

Results

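Integrins are the cell-surface receptors by which cells hold on to extracellular matrix, and laminins are basement membrane proteins that many of them bind. Their genes were taken from the count table by symbol: each ITGA or ITGB gene and each LAMA, LAMB or LAMC gene, without the integrin-binding proteins ITGB1BP1, ITGB1BP2 and ITGB3BP. This gave 39 of 34619 genes. There were 18 integrin α, 8 integrin β, 5 laminin α, 4 laminin β and 3 laminin γ genes, and ITGBL1, a protein with integrin β-like repeats that is not a receptor subunit. Of the 39 genes, 34 had enough reads to be tested, among 20794 genes in all. The other 5 were ITGAD, ITGAL, ITGAM, ITGB6 and ITGB7, which reached at most 8, 6, 12, 2 and 5 reads in any library.

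The study followed wild-type rhesus macaque (Macaca mulatta) fetal cortical neural stem cells in culture, in 38 bulk poly(A) RNA-seq libraries. Tissue of embryonic day 77 (E77) came from Frontal (10 libraries) and Occipital (10 libraries) cortex, and tissue of embryonic day 42 (E42) from Anterior (9 libraries) and Posterior (9 libraries) cortex. All series grew on plates coated with PLO and fibronectin, itself an integrin ligand, in N2 medium with FGF2 each day at 5% oxygen (stem phase, days in vitro 1, 3 and 5). They then went without FGF2 into NeuroBasal medium with B27 and the neurotrophins BDNF and NT-3 (each at 10 ng/ml), sampled in a transition phase (days 6, 7 and 8) and a terminal phase (days 11, 14 and 17, and day 20 at E77). Each library was 1 day of 1 series, with RNA from 2 wells. The labels name no separate animals or cultures, so no p-value measures the spread between them. In phase comparisons p-values measure the spread between days of a series. In age, region and difference comparisons, fitted with the day as a block, they measure the spread left after shared day effects. Age and region cannot be told apart from the fetus, the dissection or the culture run. In bulk RNA, fewer cells of a type and less RNA per cell cannot be told apart either.

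An integrin is a pair of an α and a β subunit. ITGB1 is the partner of most α subunits, ITGB4 pairs with ITGA6 as a laminin receptor of epithelial cells, and ITGB5, ITGB8, ITGB3 and ITGB6 pair with ITGAV. A laminin is a trimer of an α, a β and a γ chain, and in the developing cortex the end feet of radial glia, the cortical stem cells, rest on the laminin-bearing basement membrane under the meninges. Counted reads per library were 20149635 to 56363300. All 4 series carried neural stem cell messages: 9 markers, among them SOX2, PAX6 and VIM, summed to 8529 to 15679 CPM in E77 Frontal, 7760.0 to 15329 in E77 Occipital, 6782 to 11763 in E42 Anterior and 6851 to 15147 in E42 Posterior. CPM are counts scaled to library size with TMM factors. The E42 Anterior series stood apart. Its 9 fibroblast and meningeal markers (COL1A1, COL1A2, COL3A1, LUM, DCN, TWIST1, FOXC1, PRRX1 and TBX18) summed to 13994 to 39286 CPM, against 30.5 to 124 CPM in E77 Frontal, 6.89 to 24.5 in E77 Occipital and 26.8 to 274 in E42 Posterior. Endothelial markers summed to 21.0 to 149 CPM in E42 Anterior and to at most 44.6 CPM elsewhere. Microglial and leukocyte markers summed to at most 1.90 CPM in any library. Counts of genes between phases and between ages, and several averages that rest on E42 Anterior, are therefore given with and without that series. The other averages over series include it.

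Per transcript length, a few subunits carried most of the message. Median RPKM over the 38 libraries, the authors' length- and depth-scaled read count, was 79.8 for ITGB8, 56.1 for ITGB1 and 43.9 for ITGB5 among integrin β genes. Among integrin α genes ITGAV led with 27.3 RPKM, before ITGA6 with 18.7 and ITGA7 with 7.10. The leading laminin genes were LAMB2 with 52.8 RPKM, LAMC1 with 41.6, LAMA4 with 27.7 and LAMA5 with 11.3. The neighbours LAMB2 and ITGB1 overlapped in range within each series, 43.2 to 91.7 and 44.8 to 113 RPKM in E77 Frontal for example, so their order is not firm. ITGAX, which elsewhere marks leukocytes with ITGB2, had a median of 0.846 RPKM, while ITGB2 had 0.123 RPKM. The plot of levels by series shows LAMB1, LAMA2, LAMC3, ITGA11, ITGA1 and ITGBL1 with far higher medians in E42 Anterior than in the other 3 series.

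**Figure D1:**
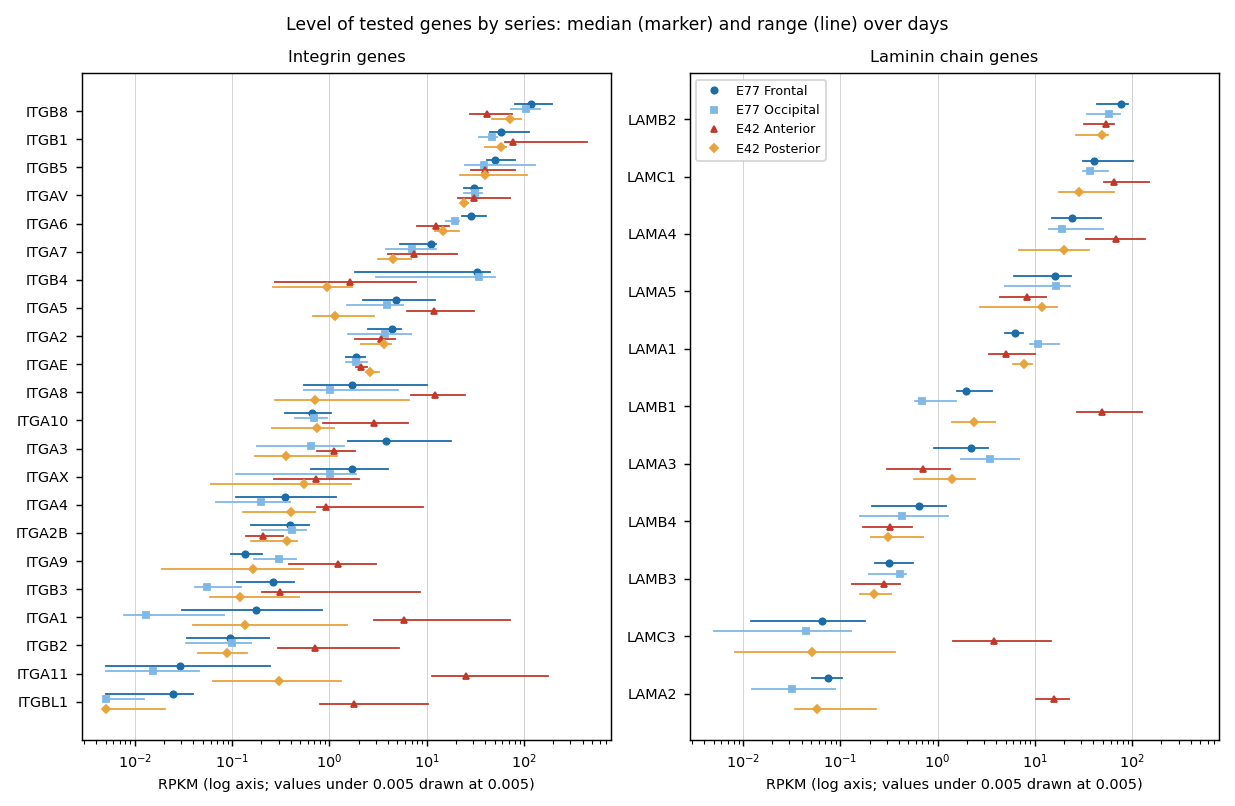
RPKM (log axis) of 33 of the 34 tested genes, integrins left and laminins right, ordered by median over 38 libraries; markers are medians and lines are ranges over the days of a series. ITGB8 leads the integrins with a median of 79.8 RPKM and LAMB2 the laminins with 52.8 RPKM, and the E42 Anterior markers of LAMA2 and LAMC3 lie far to the right of the other 3 series.

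The chain make-up of the laminin message differed by series. LAMB2, the β chain of synaptic and vascular laminins, made up 94.4 to 96.5% of the summed laminin β RPKM in E77 Frontal, 95.5 to 98.1% in E77 Occipital and 86.3 to 95.8% in E42 Posterior. In E42 Anterior it made up 31.8 to 55.5%, and LAMB1, the β chain of many early basement membranes, took 44.1 to 67.9%, against at most 12.4% in any library of the other series. LAMC1, the common γ chain, held at least 88.5% of the γ message in every library. LAMA4, an α chain of vessel walls, was the largest α message in every day 1 library, with 75.4% in E77 Frontal, 65.6% in E77 Occipital, 77.6% in E42 Anterior and 75.4% in E42 Posterior. LAMA5, a widespread α chain, held 9.55% in E77 Frontal, 6.42% in E77 Occipital, 3.93% in E42 Anterior and 5.90% in E42 Posterior on day 1. Its share reached 46.6%, 44.5%, 13.5% and 44.7% in these 4 series later on. LAMA2, best known from muscle and nerve, took 12.7 to 20.4% of the α message in E42 Anterior and at most 0.457% in the others.

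**Figure D2:**
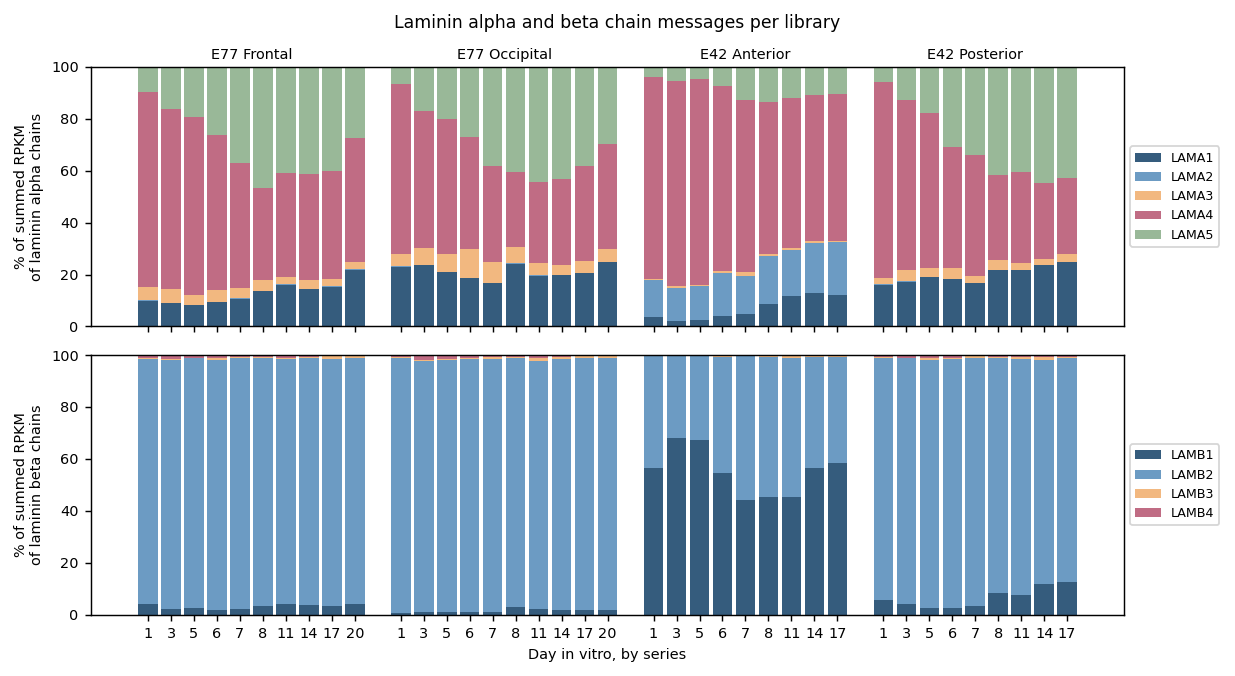
Share (%) of the summed RPKM of laminin α chains (top) and β chains (bottom) held by each gene in each of 38 libraries, by series and day in vitro. LAMB1 holds 44.1 to 67.9% of the β message in E42 Anterior and at most 12.4% elsewhere, and LAMA5 holds 3.93 to 9.55% of the α message on day 1 and at most 46.6% later.

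Most of these genes fell with differentiation. Over the average of the 4 series, 20 of the 34 tested genes were lower in the terminal than in the stem phase and 3 were higher, at an adjusted p under 0.05 in edgeR's quasi-likelihood test; 11 did not pass. Of all genes tested, 30.4% were lower and 31.9% higher. The median log2 fold change was -0.59 for these genes and near 0 for all genes. Of 15 integrin α genes 10 fell and 1 rose, of 6 integrin β genes 3 fell and 1 rose, and of 12 laminin genes 7 fell and 1 rose; ITGBL1 did not pass. Without the E42 Anterior series the counts were also 20 lower and 3 higher, of 33 tested, where 32.3% and 28.7% of all genes were called. With the 4 series averaged to 1 value per day they were 19 lower and 3 higher (22.1% and 24.9% of all genes).

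Within series, 16 genes were lower and 3 higher in E77 Frontal (20.7% and 22.5% of all genes), 11 and 3 in E77 Occipital (19.6% and 21.6%), 18 and 4 in Anterior cultures of E42 (16.2% and 17.9%) and 16 and 3 in Posterior ones (17.8% and 21.5%). In each of the 4 series 6 genes were lower (LAMA3, LAMA4, LAMB2, LAMC3, ITGB5 and ITGA5), a rule met by 5.36% of all genes. ITGB4 alone was higher in each series, which 7.61% of all genes were. The call of LAMA3 in E42 Anterior ended without its day 17 library (adjusted p = 0.100), and that of ITGB4 in E42 Posterior without any of 5 of its 6 libraries (adjusted p up to 0.18). LAMA1 was called in both directions, which is described with the laminins. Other messages changed over the same phases, given in the order E77 Frontal, E77 Occipital, E42 Anterior and E42 Posterior. Of 9 fibroblast and meningeal markers 4, 3, 1 and 7 fell and 1, 1, 1 and 0 rose. Of 6 pericyte markers 1, 3, 6 and 4 fell and 1, 1, 0 and 0 rose. Of 8 neuron markers 6, 7, 7 and 8 rose and 1, 0, 0 and 0 fell. Of 6 astrocyte markers 4, 3, 3 and 5 rose and 0 fell in any series. Of 9 neural stem cell markers 4, 4, 3 and 7 fell and 2, 1, 1 and 0 rose. Over the average of the series the median log2 fold change was 2.39 for the neuron markers, of which 7 rose, and 0.58 for the astrocyte markers, of which 5 rose. It was -0.66 for the neural stem cell markers, of which 7 fell and 2 rose. The part of such cells in the results was not tested.

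**Figure D3:**
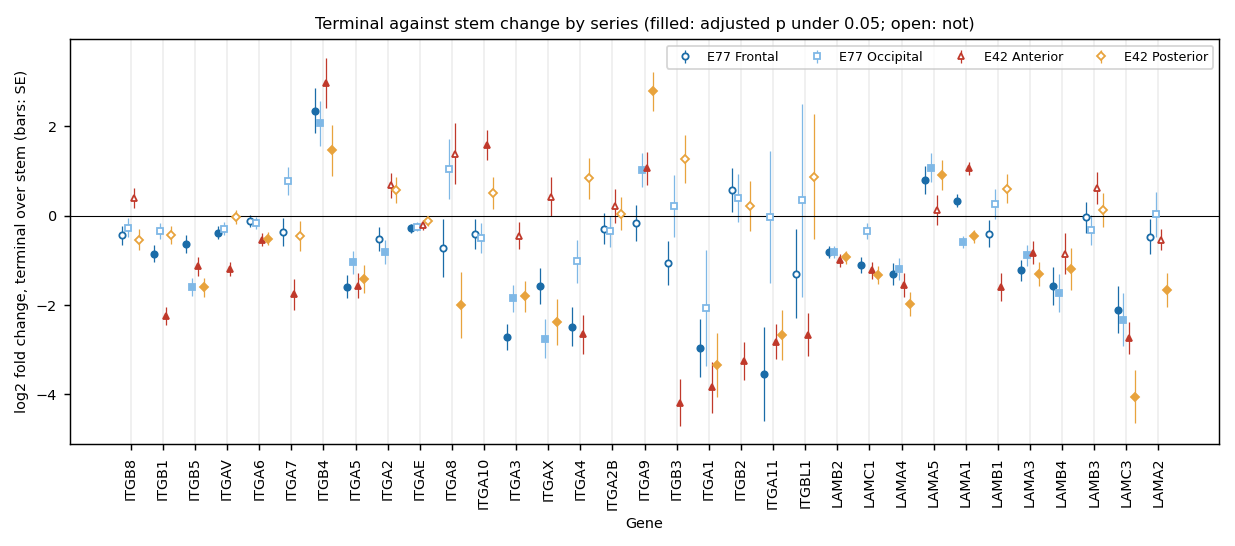
Log2 fold change, terminal over stem, of 33 of the 34 tested genes in each series, with the standard error of the fit as bars; filled markers passed at an adjusted p under 0.05. ITGB4 lies above 0 and ITGB5, ITGA5, LAMB2, LAMA4, LAMA3 and LAMC3 below 0 with filled markers in all 4 series, and LAMA1 has filled markers on both sides.

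Among laminin α chains LAMA4 fell in every series. It had 115, 108, 93.8 and 99.7 CPM in the terminal and 285, 231 and 254 CPM in the stem libraries of E77 Frontal, and 97.2, 106, 99.9 and 93.0 against 310.3, 201 and 171 CPM in those of E77 Occipital. The E42 Anterior libraries had 220.3, 291 and 287 CPM in terminal and 599, 801 and 941 CPM in stem libraries, and those of E42 Posterior 64.2, 47.6 and 42.6 against 218, 217 and 172 CPM. Terminal and stem libraries did not overlap in any series, and the average log2 fold change was -1.51 ± 0.13 (SE), adjusted p = 2.5e-11. LAMA3, the α chain of epithelial laminin, had 14.3, 15.7, 11.9 and 10.8 CPM in terminal and 34.2, 32.98 and 25.2 CPM in stem libraries of E77 Frontal, and 26.4, 22.7, 22.6 and 19.7 against 41.0, 44.6 and 41.0 CPM in E77 Occipital. In the E42 cultures it stood at 5.63, 6.25 and 3.49 against 9.26, 8.52 and 9.71 CPM for Anterior and at 7.79, 6.19 and 7.87 against 11.7, 26.3 and 16.4 CPM for Posterior. Its average change was -1.06 ± 0.12 (SE), adjusted p = 1.2e-08, and it fell after the transition: transition against stem gave 0.06 (adjusted p = 0.73) and terminal against transition -1.12 (adjusted p = 4.1e-08).

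LAMA5 went the other way. In day order it had 65.8, 98.1, 132, 185, 246, 253, 212, 200.4, 164 and 105 CPM in E77 Frontal, 55.4, 117, 119.8, 172, 239, 217, 254, 252, 189 and 124 CPM in E77 Occipital, 55.3, 102.9, 98.1, 103.4, 152, 118, 82.0, 101 and 95.6 CPM in E42 Anterior and 31.0, 78.3, 94.1, 148, 191, 170.5, 134, 132 and 115 CPM in E42 Posterior. Day 1 was the lowest day in all 4 series, and the highest was day 8 in E77 Frontal, day 11 in E77 Occipital and day 7 in both E42 series. The average log2 fold change was 1.05 ± 0.17 (SE), adjusted p = 1.3e-05 for transition against stem, and 0.72 ± 0.16 (SE), adjusted p = 3.2e-04 for terminal against stem. Within series, terminal against stem passed in E77 Frontal (0.79), E77 Occipital (1.07) and E42 Posterior (0.90), and not in E42 Anterior (0.12, adjusted p = 0.82). Single libraries decided these calls. The call in E77 Frontal ended without any of 5 of its 7 libraries (days 1, 3, 11, 14 and 17; adjusted p up to 0.20), that in E42 Posterior without any of 5 of its 6 (the same days; up to 0.25), and that in E77 Occipital without day 1 (0.067). LAMA1, a chain of early embryonic laminin, had 70.3, 59.2, 53.4 and 70.5 CPM in terminal and 57.4, 45.6 and 47.4 CPM in stem libraries of E77 Frontal, and 67.9, 102 and 94.9 against 44.7, 35.6 and 46.8 CPM in E42 Anterior. It was higher in the terminal phase of both (log2 fold changes 0.34 and 1.06). In E77 Occipital it had 94.3, 97.8, 85.9 and 88.0 CPM in terminal and 169, 139.9 and 107 CPM in stem libraries, and in E42 Posterior 61.1, 58.6 and 55.8 against 71.0, 87.1 and 84.1 CPM. There it was lower (-0.60 and -0.46). The terminal and stem libraries overlapped in E77 Frontal and not in the other 3 series. The call in E77 Frontal ended without any of 4 of its 7 libraries.

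LAMB2 and LAMC1, the main β and γ chains, fell. LAMB2 had 282, 261, 297 and 267 CPM in terminal and 483, 442 and 528 CPM in stem libraries of E77 Frontal, and 227, 281, 239.5 and 208 against 422, 414 and 428 CPM in E77 Occipital. At E42, Anterior had 195, 195 and 208 against 418, 380.2 and 397 CPM, while Posterior had 170.0, 154 and 154 against 280.3, 301 and 333 CPM. The groups did not overlap in any series, and the log2 fold change lay between -0.999 and -0.81 (average -0.89 ± 0.07 (SE), adjusted p = 2.0e-12). By phase averages the larger step was terminal against transition (-0.64), with -0.25 for transition against stem. Part of the fall lay within the transition phase. From day 7 to day 8 LAMB2 went from 462 to 389 CPM in E77 Frontal and from 349 to 289 CPM in E77 Occipital. It went from 349 to 252 CPM in E42 Anterior and from 302 to 186 CPM in E42 Posterior. LAMC1 had 283, 254, 241 and 329 CPM in terminal and 764, 512 and 513 CPM in stem libraries of E77 Frontal, 430.4, 525 and 537 against 1210.0, 1282 and 1001 CPM in E42 Anterior, and 171, 154 and 137 against 509, 381 and 269 CPM in E42 Posterior. In E77 Occipital it had 248, 285, 299.7 and 341 CPM against 444, 356 and 323 CPM, which overlapped and did not pass (-0.35, adjusted p = 0.11). Its average change was -1.004 ± 0.09 (SE), adjusted p = 8.7e-11, nearly all of it between stem and transition (-0.83). LAMC3, a γ chain seen in brain and retina, fell to 9.18, 13.4 and 12.1 CPM in terminal E42 Anterior libraries, against 58.0, 73.1 and 98.8 CPM in stem ones. Elsewhere it never passed 2.21 CPM, and its average change was -2.80 ± 0.26 (SE), adjusted p = 1.5e-10. LAMB4 (average change -1.34, adjusted p = 4.8e-06) and LAMA2 (-0.66, adjusted p = 0.0050) also fell, while LAMB1 (-0.29, adjusted p = 0.12) and LAMB3 (0.10, adjusted p = 0.65) did not pass. Within series LAMA2 passed in E42 Posterior alone, with 0.537, 0.442 and 0.667 CPM in terminal and 2.13, 2.27 and 0.927 CPM in stem libraries. In E42 Anterior, where it was abundant, it had 108, 159 and 167 against 175, 208 and 248 CPM and did not pass.

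ITGB4, the partner of ITGA6, was the integrin that rose in all 4 series. In day order it had 11.8, 51.3, 92.8, 185, 196, 285, 244, 238, 289 and 285 CPM in E77 Frontal and 20.1, 70.2, 117, 198, 188, 329, 254, 361, 277 and 264 CPM in E77 Occipital. In E42 Anterior it had 2.04, 4.26, 8.29, 11.6, 10.3, 16.1, 21.9, 37.4 and 55.0 CPM, and in E42 Posterior 1.76, 4.17, 3.43, 7.16, 5.65, 6.56, 6.42, 8.00 and 11.3 CPM. Day 1 was the lowest day everywhere, and all terminal libraries of a series lay above its stem libraries. The log2 fold change, terminal over stem, was 2.35 in E77 Frontal, 2.07 in E77 Occipital, 2.96 in the Anterior and 1.46 in the Posterior series of E42, and 2.21 ± 0.27 (SE), adjusted p = 3.2e-08 on average. Most of it came between stem and transition (1.58, adjusted p = 3.1e-05). With the stem phase taken without day 1 the average was 1.80, adjusted p = 5.8e-09. ITGA6 did not rise with it: it had 47.1 to 171 (median 96.7) CPM in the 14 terminal and 76.6 to 216 (median 109) CPM in the 12 stem libraries, and its average change was -0.34 ± 0.07 (SE), adjusted p = 9.1e-05.

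Of the β partners of ITGAV, ITGB5 fell in each series. It had 153, 132, 127 and 159 CPM in terminal and 238, 184 and 245 CPM in stem libraries of E77 Frontal, and 102.6, 119.7, 80.1 and 79.8 against 402, 243 and 221 CPM in E77 Occipital. The E42 Anterior libraries had 111, 119 and 93.5 against 239, 274 and 197 CPM, and those of E42 Posterior 101, 93.5 and 67.2 against 332, 256 and 203 CPM. The groups did not overlap within any series, and the average change was -1.24 ± 0.10 (SE), adjusted p = 7.7e-12, mostly before the transition libraries (-0.97). ITGB8, which with ITGAV activates latent TGF-β, peaked on day 7 in all 4 series. In day order it had 472, 503, 624, 655, 773, 457, 490.2, 372, 345 and 359.8 CPM in E77 Frontal, 328, 453, 519, 568, 578, 411, 453, 330.3, 324 and 331 CPM in E77 Occipital, 128, 131, 193, 233, 327, 227, 276, 173 and 145 CPM in E42 Anterior and 296, 304, 357, 365, 385, 252, 260.4, 204 and 192 CPM in E42 Posterior. Transition against stem gave 0.34 ± 0.12 (SE), adjusted p = 0.018, a call that ended with day 1 left out (adjusted p = 0.17) and with 1 value per day (0.24). Terminal against transition gave -0.56 ± 0.11 (SE), adjusted p = 1.9e-04, which ended with 1 value per day (adjusted p = 0.087), and terminal against stem did not pass (-0.22, adjusted p = 0.095). ITGAV itself had 154 to 205 (median 182) CPM in terminal and 164 to 541 (median 239) CPM in stem libraries. It fell by 0.48 on the log2 scale on average (adjusted p = 2.0e-06), with the widest change in E42 Anterior (-1.20). Within series its fall passed there and in E77 Frontal only, and the call in E77 Frontal ended without any of 4 single libraries. ITGB3, at 0.190 to 2.10 (median 0.769) CPM in terminal and 0.196 to 40.8 (median 1.03) CPM in stem libraries, was lower by its average (-0.94, adjusted p = 0.0045) but not without E42 Anterior (0.09, adjusted p = 0.76).

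**Figure D4:**
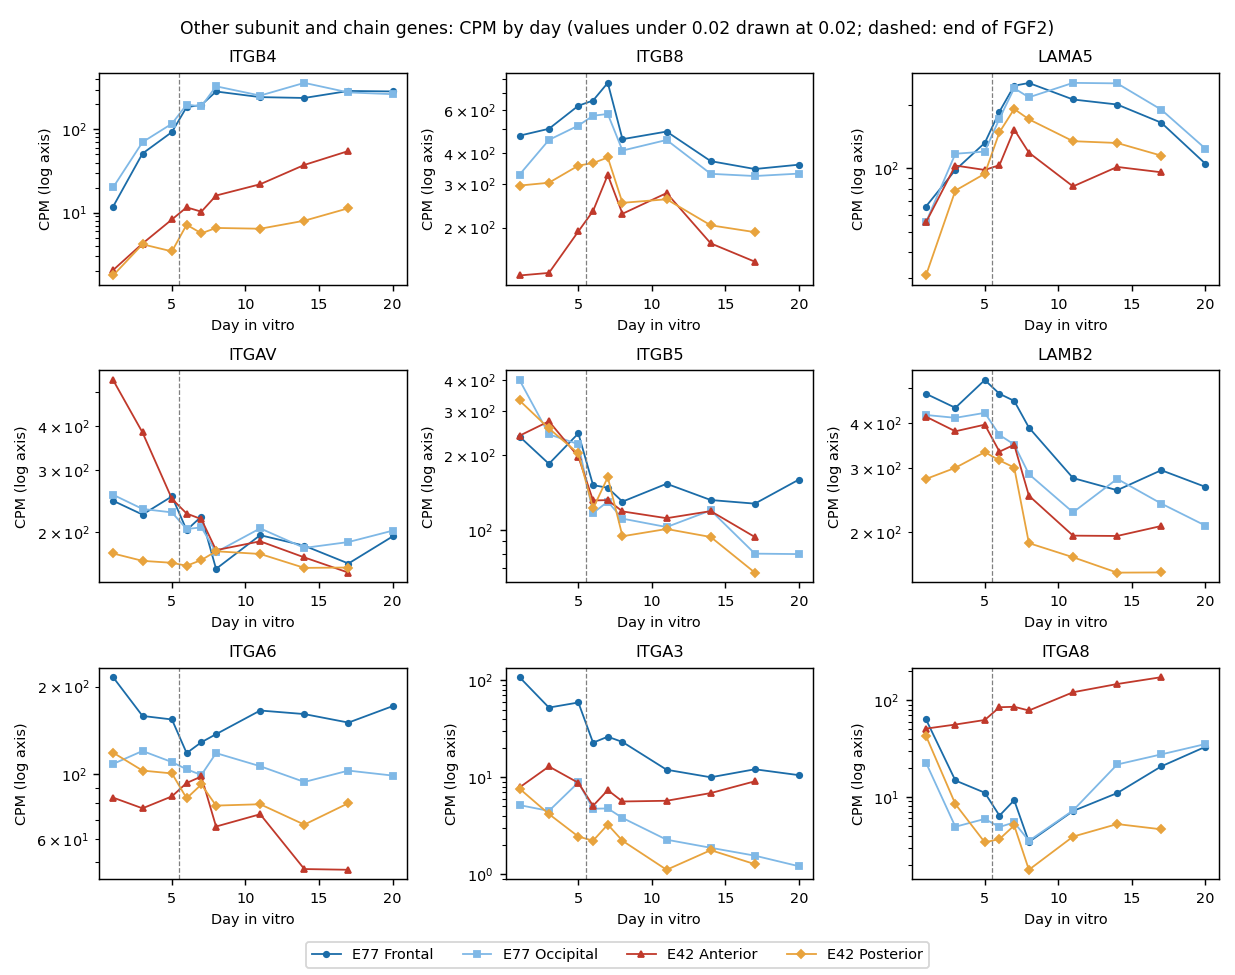
CPM (log axis) by day in vitro of ITGB4, ITGB8, LAMA5, ITGAV, ITGB5, LAMB2, ITGA6, ITGA3 and ITGA8, 1 line per series and 1 point per library; the dashed line marks the end of FGF2. ITGB4 starts lowest on day 1 in all 4 series and ITGB8 is highest on day 7 in all 4, and ITGB4 is at least 185 CPM from day 6 on in both E77 series and at most 55.0 CPM in both E42 series.

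ITGB1, the common β subunit, had 202, 201, 188 and 186 CPM in terminal and 421, 322 and 307 CPM in stem libraries of E77 Frontal, and 265, 304 and 319 against 1925, 1615 and 688 CPM in E42 Anterior. Both passed, with log2 fold changes of -0.85 and -2.25. In E77 Occipital it had 175, 146, 152 and 148 against 204, 200.1 and 186 CPM, and in E42 Posterior 209.7, 183 and 154 against 253, 248 and 235 CPM. There the groups did not overlap either, but neither passed (-0.34, adjusted p = 0.14, and -0.43, adjusted p = 0.084). The average was -0.97 ± 0.10 (SE), adjusted p = 3.8e-10, and -0.59, adjusted p = 4.8e-08 without E42 Anterior.

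Among the α partners of ITGB1, ITGA5, the fibronectin receptor, fell in every series. It had 13.1, 13.3, 9.56 and 15.7 CPM in terminal and 51.4, 31.9 and 33.3 CPM in stem libraries of E77 Frontal, 11.4, 14.2, 6.67 and 8.69 against 25.5, 19.2 and 18.9 CPM in E77 Occipital, 29.4, 48.7 and 55.3 against 129.8, 148 and 118 CPM in E42 Anterior and 4.03, 3.14 and 2.93 against 12.8, 8.66 and 5.501 CPM in E42 Posterior. The groups did not overlap within any series, and the average change was -1.41 ± 0.14 (SE), adjusted p = 5.3e-10. The laminin receptor ITGA3 was highest in E77 Frontal, with 11.97, 10.0, 12.1 and 10.5 CPM in terminal and 108, 52.5 and 59.3 CPM in stem libraries, and had at most 12.9 CPM in any library of the other series. It fell in E77 Frontal (-2.72), E77 Occipital (-1.85) and E42 Posterior (-1.80), and did not pass in E42 Anterior (-0.45, adjusted p = 0.26). The laminin receptor ITGA7 had 15.5 to 64.0 (median 28.9) CPM in terminal and 18.9 to 112 (median 39.4) CPM in stem libraries. Its fall passed on average (-0.46, adjusted p = 0.017), but within series only in E42 Anterior (-1.76), and neither with 1 value per day (adjusted p = 0.083) nor without E42 Anterior (-0.07, adjusted p = 0.76).

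The collagen receptors ITGA1 and ITGA11 fell in E77 Frontal and both E42 series, by 2.67 to 3.84 on the log2 scale, but were abundant in E42 Anterior alone. There ITGA1 had 33.5, 40.3 and 33.5 CPM in terminal and 878, 517 and 138 CPM in stem libraries, and ITGA11 56.1, 124 and 105 against 394, 924 and 695 CPM. The call of ITGA11 in E77 Frontal, at most 1.06 CPM, ended without its day 3 library (adjusted p = 0.052). The other 2 collagen receptors did not pass on average: ITGA2 had -0.03 (adjusted p = 0.89) and ITGA10 0.29 (adjusted p = 0.14). ITGA10 was higher in the terminal phase of E42 Anterior, with 17.4, 28.6 and 39.2 CPM against 5.49, 8.61 and 14.4 CPM in its stem libraries (1.58 ± 0.34 (SE), adjusted p = 6.6e-04). ITGA4 fell in E77 Frontal (-2.49) and E42 Anterior (-2.66), where it had 3.61, 4.28 and 3.81 CPM in terminal and 46.3, 20.3 and 7.35 CPM in stem libraries. ITGA9, which shares ligands with ITGA4, rose on average (1.17 ± 0.20 (SE), adjusted p = 7.8e-06), with 0.824 to 24.4 (median 3.14) CPM in terminal and 0.142 to 10.7 (median 1.31) CPM in stem libraries. Within series its rise passed in E77 Occipital and both E42 series. It did not pass in E77 Frontal, with 1.22, 0.986, 0.824 and 1.38 CPM in terminal and 0.950, 1.28 and 1.52 CPM in stem libraries. The calls in E77 Occipital and E42 Anterior ended without any of 4 and 3 single libraries. ITGAX (-1.57, adjusted p = 5.1e-07) and ITGAE (-0.22, adjusted p = 8.1e-04), known from leukocytes, fell on average, in libraries in which leukocyte markers summed to at most 1.90 CPM.

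The transition phase showed when the changes came. Transition against stem, 17 genes were lower and 3 higher (20% and 21.6% of all genes), and terminal against transition 12 were lower and 3 higher (19.2% and 22.7%). Without E42 Anterior they were 14 and 2 (19.4% and 17%) for transition against stem, and 12 and 2 (19.5% and 20.4%) for terminal against transition. With 1 value per day, transition against stem gave 12 lower and 2 higher (9% and 10.6%), and terminal against transition gave 7 lower and 1 higher, where 6.13% and 7.59% of all genes were called. ITGA8, a receptor for the matrix protein NPNT, fell and then rose: transition against stem gave -1.33 ± 0.36 (SE), adjusted p = 0.0040, and terminal against transition 1.25 ± 0.36 (SE), adjusted p = 0.0057. In day order it had 63.8, 14.8, 11.1, 6.42, 9.27, 3.43, 7.17, 10.99, 20.8 and 33.1 CPM in E77 Frontal and 22.7, 4.93, 5.94, 4.90, 5.47, 3.52, 7.26, 21.7, 27.6 and 35.3 CPM in E77 Occipital. In E42 Posterior it had 43.0, 8.46, 3.40, 3.67, 5.08, 1.77, 3.90, 5.25 and 4.64 CPM and in E42 Anterior 51.0, 56.2, 62.7, 84.9, 85.8, 78.6, 121, 148 and 174 CPM. Day 1 was the highest day in E77 Frontal and E42 Posterior, and in E42 Anterior ITGA8 had no such dip. Without day 1 the fall into the transition did not pass (-0.38, adjusted p = 0.31). With 1 value per day neither step passed (adjusted p = 0.18 each).

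ITGB4, ITGB8 and several laminin chains were higher at E77. In stem libraries 12 genes were higher and 14 lower at E77 than at E42 (28.8% and 31.4% of all genes), in transition libraries 12 and 14 (25.7% and 31.1%), and in terminal libraries 8 and 14 (20.6% and 24.4%). Both E42 series enter these comparisons. With E42 Anterior left out and both E77 series kept, an alternative chosen after the data were seen, 17 genes were higher and 6 lower in stem libraries (25.1% and 26.7% of all genes), 16 and 3 in transition libraries (24.8% and 24.1%) and 15 and 5 in terminal libraries (19.2% and 20.8%), of 33 tested. With E77 Frontal left out as well, E77 Occipital against E42 Posterior had 13 genes higher and 8 lower in stem, 12 and 4 in transition, and 13 and 7 in terminal libraries. Of all genes, 20.4% and 20.8%, 21.9% and 20.7%, and 17.5% and 17.8% were called higher and lower in these.

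Markers of cell types differed between the ages too. In stem libraries 5 of 6 astrocyte markers were higher at E77 (median log2 fold change 2.33), 6 of 8 neuron markers were lower (-1.04) and 8 of 9 fibroblast and meningeal markers were lower (-6.49). In terminal libraries these numbers were 5 higher (1.70), 6 lower (-0.61) and 8 lower (-6.90). Astrocyte markers summed to 3246 to 9357 CPM in E77 Frontal and 2281 to 7282 CPM in E77 Occipital, against 1406 to 2187 CPM for Anterior and 578 to 1809 CPM for Posterior cultures of E42. The part of these cells in the age results was not tested.

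With all series, 6 genes were higher at E77 in each of the 3 phases (ITGB4, ITGB8, ITGA6, LAMA3, LAMA5 and LAMB2), as were 11.9% of all genes. All 6 were also higher in each phase with both E77 series against E42 Posterior. There 10 genes met the rule, the others being ITGA3, ITGA5, ITGA7 and LAMC1. Between E77 Occipital and E42 Posterior 8 met it: all of the 6 but ITGA6, and also ITGA5, ITGAV and LAMA1. ITGA6 did not pass there in stem libraries (0.08, adjusted p = 0.56). No share of all genes is given for the rule in these settings, so these counts are not set against all genes. ITGB4 had 11.8, 51.3 and 92.8 CPM in E77 Frontal and 20.1, 70.2 and 117 CPM in E77 Occipital stem libraries, against 2.04, 4.26 and 8.29 CPM in E42 Anterior and 1.76, 4.17 and 3.43 CPM in E42 Posterior ones. No E77 stem library was as low as any E42 stem library, and the log2 fold change was 3.77 ± 0.19 (SE), adjusted p = 4.3e-13. It was 3.99 ± 0.18 (SE), adjusted p = 4.2e-14 in terminal libraries, and 4.04, adjusted p = 2.4e-09, and 5.04, adjusted p = 7.8e-11, with both E77 series against E42 Posterior. ITGB8 had 328 to 624 (median 487) CPM in E77 and 128 to 357 (median 245) CPM in E42 stem libraries (1.13 ± 0.07 (SE), adjusted p = 2.3e-12). LAMA3 had 25.2 to 44.6 (median 37.6) CPM in E77 and 8.52 to 26.3 (median 10.7) CPM in E42 stem libraries (1.496 ± 0.15 (SE), adjusted p = 7.0e-09). LAMB2 differed less, with 208 to 297 (median 264) CPM in E77 and 154 to 208 (median 182) CPM in E42 terminal libraries (0.57 ± 0.07 (SE), adjusted p = 9.9e-08). LAMA5 had 105 to 254 (median 195) CPM in E77 and 82.0 to 134 (median 108) CPM in E42 terminal libraries (0.95 ± 0.08 (SE), adjusted p = 7.4e-10).

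With all series, 9 genes were lower at E77 in each phase, as were 14.7% of all genes. Of them ITGA11, ITGAE and LAMB1 were also lower in each phase with both E77 series against E42 Posterior. No share of all genes is given for the rule in that setting. ITGA11 had at most 1.06 CPM in any E77 library, against 0.300 to 6.11 CPM in E42 Posterior. ITGA1, lower in each phase with all series, passed in that setting in stem libraries (-1.77, adjusted p = 1.2e-04). It passed there in neither transition (-0.57, adjusted p = 0.19) nor terminal libraries (-1.02, adjusted p = 0.075). LAMB1 had 20.9, 11.1 and 13.3 CPM in E77 Frontal and 3.52, 4.50 and 4.15 CPM in E77 Occipital stem libraries, against 17.1, 13.3 and 8.75 CPM in E42 Posterior ones. In the terminal libraries it had 12.6, 10.99, 10.7 and 11.4 CPM in E77 Frontal and 5.75, 5.83, 4.18 and 3.68 CPM in E77 Occipital, against 14.4, 21.9 and 23.1 CPM in E42 Posterior. E77 Frontal overlapped E42 Posterior in stem libraries. The log2 fold change in stem libraries was -3.67 ± 0.26 (SE), adjusted p = 1.6e-10 with all series, and -0.71, adjusted p = 0.0051 with both E77 series against E42 Posterior. With E77 Frontal left out too it was -1.63, adjusted p = 2.8e-05. LAMA2 stood at -5.10, -4.07 and -4.17 in stem, transition and terminal libraries. With both E77 series against E42 Posterior it passed in stem libraries (-1.62, adjusted p = 0.0019) but not in transition (0.12, adjusted p = 0.85) or terminal ones (-0.16, adjusted p = 0.82).

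ITGB1 was lower at E77 in stem libraries with all series (-1.14, adjusted p = 2.8e-08) and did not pass with both E77 series against E42 Posterior (0.09, adjusted p = 0.38). Its E77 Frontal stem libraries lay above, and its E77 Occipital ones below, all E42 Posterior stem libraries. ITGA5 did not pass in stem libraries with all series (-0.26, adjusted p = 0.24), and was higher at E77 when E42 Posterior was the only E42 series (1.71, adjusted p = 3.7e-07). ITGA8 changed direction: in terminal libraries it was lower at E77 with all series (-0.85, adjusted p = 0.040), a call that ended without any of 7 single libraries, and higher with both E77 series against E42 Posterior (1.64, adjusted p = 9.5e-05). LAMC1 was lower in transition libraries with all series (-0.31, adjusted p = 0.0042) and higher against E42 Posterior (0.41, adjusted p = 0.0011).

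The widest contrast lay between the E42 regions. Over all days 22 of 34 genes were higher and 6 lower in E42 Anterior than in E42 Posterior, against 25.1% and 30.3% of all genes, and the median log2 difference was 1.19 for these genes and -0.06 for all genes. In 7 genes (LAMB1, LAMA2, LAMC3, ITGA11, ITGA1, ITGB2 and ITGBL1) every E42 Anterior library lay above all 29 other libraries, which held for 2.51% of all genes. The fibroblast and meningeal markers moved the same way, 9 of 9 higher with sums of 13994 to 39286 CPM in E42 Anterior and 26.8 to 274 CPM in E42 Posterior, and so did 4 of 6 pericyte and 5 of 7 tested endothelial markers. Of 9 neural stem cell markers 5 were lower and 1 higher. The part of these cells in the results was not tested.

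LAMB1 had 569, 847, 854, 425, 289, 220.0, 171, 269.6 and 309 CPM, in day order, in E42 Anterior, against 17.1, 13.3, 8.75, 9.33, 10.9, 17.3, 14.4, 21.9 and 23.1 CPM in E42 Posterior. The log2 difference was 4.76 ± 0.21 (SE), adjusted p = 2.2e-14. LAMA2 had 175, 208, 248, 207, 157, 145, 108, 159 and 167 CPM in E42 Anterior and 2.13, 2.27, 0.927, 0.573, 0.490, 0.332, 0.537, 0.442 and 0.667 CPM in E42 Posterior. Its log2 difference was 7.77 ± 0.19 (SE), adjusted p = 1.4e-19, the lowest E42 Anterior library having 108 CPM and the highest of all others 2.27 CPM. LAMC3 had 9.18 to 98.8 (median 24.2) CPM in E42 Anterior and 0.0491 to 2.21 (median 0.295) CPM in E42 Posterior (6.28 ± 0.23 (SE), adjusted p = 2.2e-17). LAMA4 and LAMC1 were higher by less, with 220.3 to 941 (median 437) CPM and 430.4 to 1282 (median 538) CPM in E42 Anterior, against 42.6 to 218 (median 123) CPM and 137 to 509 (median 226) CPM in E42 Posterior. Their log2 differences were 2.08 and 1.56 (adjusted p = 4.5e-14 and 8.8e-16). LAMB2 differed least of the laminins that were higher (0.31, adjusted p = 1.9e-05), and LAMA3 (-0.69) and LAMA1 (-0.28) were lower.

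Among integrins, ITGA11 had 394, 924, 695, 321, 102, 125, 56.1, 124 and 105 CPM in day order in E42 Anterior, against 2.88, 6.11, 2.13, 1.35, 1.60, 1.36, 0.672, 0.835 and 0.300 CPM in E42 Posterior. ITGA1 had 878, 517, 138, 97.3, 66.0, 43.7, 33.5, 40.3 and 33.5 CPM in E42 Anterior, against 16.5, 4.09, 1.67, 1.69, 1.496, 0.810, 1.14, 0.589 and 0.434 CPM in E42 Posterior. The log2 differences were 7.21 ± 0.21 (SE), adjusted p = 1.7e-17, and 5.84 ± 0.20 (SE), adjusted p = 6.2e-17. ITGA5 had 29.4 to 148 (median 55.3) CPM in E42 Anterior and 2.93 to 12.8 (median 5.06) CPM in E42 Posterior (3.61 ± 0.17 (SE), adjusted p = 3.6e-14), and ITGA8 51.0 to 174 (median 84.9) against 1.77 to 43.0 (median 4.64) CPM (4.04 ± 0.28 (SE), adjusted p = 6.7e-11). Their common partner ITGB1 had 256 to 1925 (median 319) CPM in E42 Anterior and 154 to 253 (median 219) CPM in E42 Posterior (1.19 ± 0.10 (SE), adjusted p = 2.4e-10). The excess of ITGB1 was largest on days 1 and 3, with 1925 and 1615 CPM against 253 and 248 CPM, and from day 6 on it was 256 to 347 CPM against 154 to 224 CPM. ITGBL1 had 156 to 2525 reads in E42 Anterior libraries and at most 4 in E42 Posterior ones. ITGB8 (-0.54), ITGA6 (-0.27), ITGAE (-0.21) and ITGA2B (-0.51) were lower in E42 Anterior, the last no longer so without any of 6 of the 18 libraries.

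**Figure D5:**
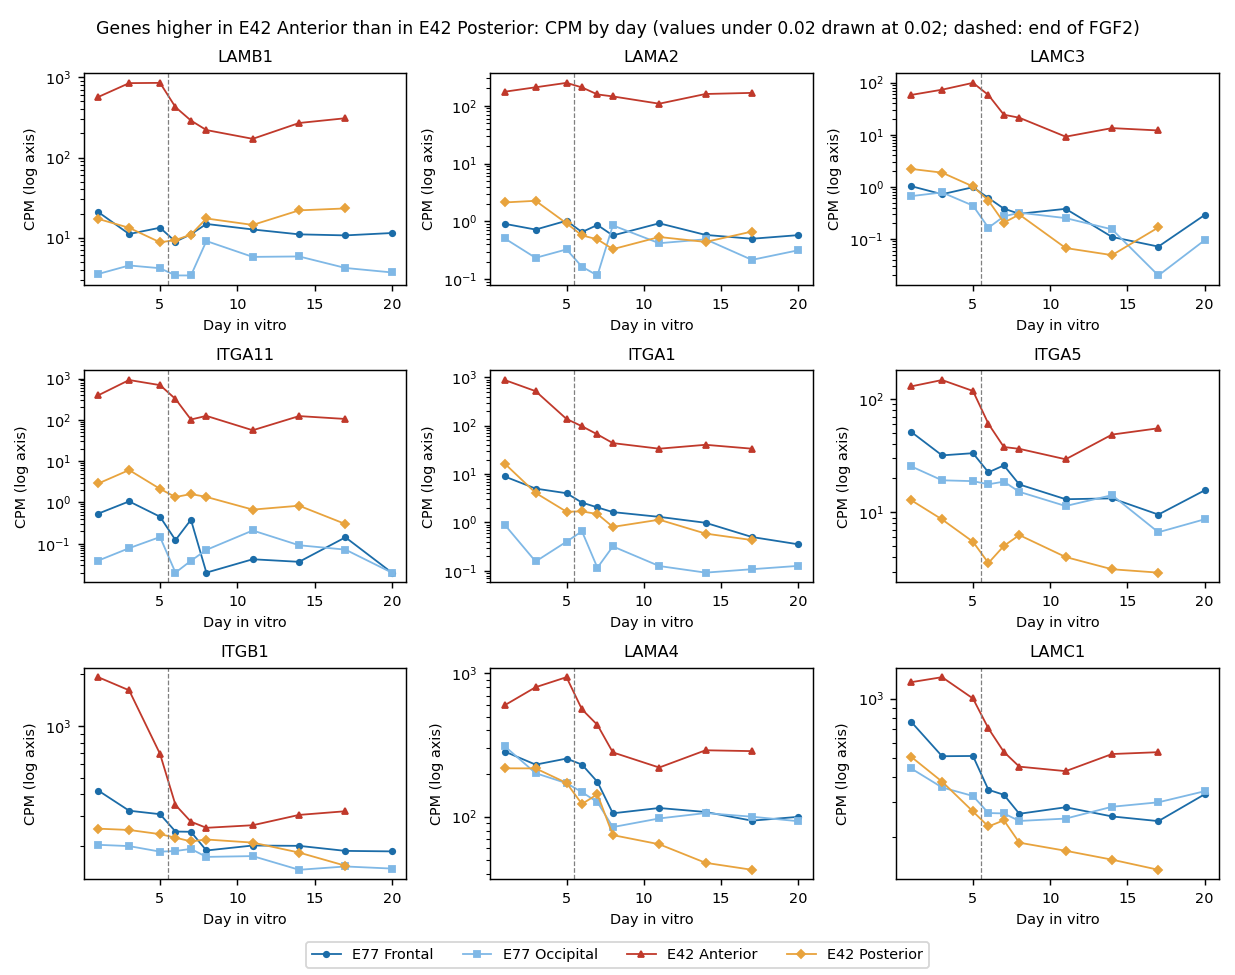
CPM (log axis) by day in vitro of LAMB1, LAMA2, LAMC3, ITGA11, ITGA1, ITGA5, ITGB1, LAMA4 and LAMC1 in the 4 series, 1 point per library; the dashed line marks the end of FGF2. LAMA2 runs at 108 to 248 CPM in E42 Anterior and at most 2.27 CPM in the other 3 series, and ITGA1 falls in E42 Anterior to 33.5 CPM on day 17, against 878 CPM on day 1.

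At E77 fewer of these genes differed between the regions. In E77 Frontal 16 genes were higher and 3 lower than in E77 Occipital (16.3% and 13.8% of all genes), with a median log2 difference of 0.28. In day order ITGA3 had 108, 52.5, 59.3, 22.8, 26.3, 23.2, 11.97, 10.0, 12.1 and 10.5 CPM in E77 Frontal, against 5.16, 4.50, 8.85, 4.74, 4.77, 3.81, 2.27, 1.87, 1.55 and 1.21 CPM in E77 Occipital (2.88 ± 0.18 (SE), adjusted p = 1.0e-11). Every Frontal library lay above every Occipital one. ITGA6 had 118 to 216 (median 157) CPM in E77 Frontal and 94.3 to 120.4 (median 105) CPM in E77 Occipital (0.52 ± 0.07 (SE), adjusted p = 2.1e-06), and ITGB1 186 to 421 (median 222) against 146 to 204 (median 180.4) CPM (0.47 ± 0.09 (SE), adjusted p = 3.5e-04). LAMB1 had 8.92 to 20.9 (median 11.3) CPM in E77 Frontal and 3.37 to 9.07 (median 4.17) CPM in E77 Occipital (1.43 ± 0.21 (SE), adjusted p = 1.2e-05). LAMA1 was the other way round, with 57.4, 45.6, 47.4, 55.7, 60.1, 62.7, 70.3, 59.2, 53.4 and 70.5 CPM in E77 Frontal, against 169, 139.9, 107, 100.3, 89.4, 109, 94.3, 97.8, 85.9 and 88.0 CPM in E77 Occipital (-0.91 ± 0.08 (SE), adjusted p = 1.6e-09), and so were LAMA3 (-0.72, adjusted p = 1.8e-05) and ITGA9 (-1.06, adjusted p = 7.1e-04). ITGA1 was higher in E77 Frontal at low levels, 0.354 to 8.92 (median 1.84) CPM, against 0.0920 to 0.900 (median 0.142) CPM in E77 Occipital (2.999 ± 0.33 (SE), adjusted p = 1.9e-07). Fibroblast and meningeal markers also differed, 6 of 9 higher with sums of 30.5 to 124 CPM in E77 Frontal and 6.89 to 24.5 CPM in E77 Occipital, and the part of such cells was not tested. The call of ITGA7 ended without the E77 Frontal day 5 library (adjusted p = 0.059) or the E77 Occipital day 1 library (0.051), that of LAMA2 without the E77 Frontal day 7 library (0.052), and that of LAMB4 without any of 10 libraries (up to 0.11).

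Differences between these changes were tested directly. Terminal against stem changed more upward, or less downward, at E77 than at E42 for 7 genes and the other way for 6 (13% and 13.2% of all genes). The first 7 were LAMA4, LAMA5, LAMC1, ITGB1, ITGB2, ITGA6 and ITGA7, and the others LAMA1, ITGA2, ITGA3, ITGA9, ITGA10 and ITGAX. With both E77 series against E42 Posterior, 5 of the 13 still passed (LAMA4, LAMC1, ITGA2, ITGA6 and ITGA9), and between E77 Occipital and E42 Posterior 5 did (LAMA4, LAMC1, ITGA2, ITGA7 and ITGA9). In all, 5 genes changed more upward and 4 more downward at E77 in that first setting (8.69% and 8.48% of all genes), and 5 and 2 in the other (6.14% and 5.68%). ITGA2 had 37.3, 25.4, 20.7 and 21.0 CPM in terminal and 39.4, 36.9 and 36.2 CPM in stem libraries of E77 Frontal, and 34.7, 20.2, 17.6 and 12.7 against 54.8, 28.8 and 29.2 CPM in E77 Occipital. In the E42 cultures it stood at 36.6, 39.6 and 29.3 against 29.4, 20.5 and 16.2 CPM for Anterior and at 33.9, 32.7 and 32.6 against 28.8, 21.1 and 16.97 CPM for Posterior. Within series the change passed in E77 Occipital alone (-0.82), a call that ended without its day 1 (-0.46, adjusted p = 0.21), day 17 (0.054) or day 20 library (0.064). The age difference was -1.22 ± 0.18 (SE), adjusted p = 2.4e-05, and -1.15, adjusted p = 0.0017 with both E77 series against E42 Posterior. ITGA7 had 25.6, 53.6, 52.5 and 44.3 CPM in terminal and 57.7, 53.3 and 60.6 CPM in stem libraries of E77 Frontal. In E77 Occipital it stood at 22.2, 52.2, 60.6 and 64.0 against 18.9, 30.5 and 38.005 CPM. In E42 Anterior the values were 20.8, 24.4 and 28.5 against 112, 97.2 and 40.8 CPM. In E42 Posterior they were 15.5, 18.1 and 29.2 against 30.8, 32.9 and 22.6 CPM. The age difference was 1.13 ± 0.28 (SE), adjusted p = 0.0047. With both E77 series against E42 Posterior that difference did not pass (0.56, adjusted p = 0.14). The regions were compared between ages as Anterior minus Posterior at E42 less Frontal minus Occipital at E77. This signed difference was above 0 for 18 genes and below 0 for 3, ITGA3, ITGA6 and ITGB8 (18% and 20.6% of all genes). Its sign does not give the size at either age: LAMA1 (0.63) was -0.28 at E42 and -0.91 at E77, and ITGB8 (-0.77) was -0.54 at E42 and 0.23 at E77. ITGA3 (-1.29 ± 0.26 (SE), adjusted p = 3.9e-04) and ITGA6 (-0.80 ± 0.10 (SE), adjusted p = 8.9e-07) were the laminin receptors among them, and LAMA2 (6.79 ± 0.48 (SE), adjusted p = 8.6e-11) had the largest positive difference of the laminins.

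The partners of these genes were described from 3 lists: 20 other integrin ligands, 22 other basement membrane proteins and 28 integrin adaptors, of which 19, 22 and 27 were tested. In E42 Anterior against E42 Posterior, 22 of 22 basement membrane genes were higher, as were 13 of 19 ligands (1 lower) and 21 of 27 adaptors (0 lower), where 25.1% and 30.3% of all genes were higher and lower. FN1, fibronectin, averaged 7139.8 ± 4055 CPM in E42 Anterior and 115 ± 90.8 CPM in E42 Posterior (SD, n = 9 each), a log2 difference of 6.202 ± 0.22 (SE), adjusted p = 1.3e-16. NID2, which links laminin to collagen IV, averaged 303 ± 83.7 CPM and 3.54 ± 2.39 CPM in these series (6.56 ± 0.19 (SE), adjusted p = 4.6e-18). POSTN, periostin, stood at 7.29 (adjusted p = 5.0e-13), the integrin-linked kinase partner LIMS2 at 4.32 (adjusted p = 3.9e-15) and tensin TNS1 at 2.25 (adjusted p = 7.4e-16). In E77 Frontal against E77 Occipital 12 of 19 ligands were higher and 1 lower, 8 of 22 basement membrane genes higher and 3 lower, and 5 of 27 adaptors higher and 8 lower, where 16.3% and 13.8% of all genes were higher and lower. There the ligand SPP1, osteopontin, averaged 416 ± 447 CPM in E77 Frontal and 65.9 ± 96.0 CPM in E77 Occipital (SD, n = 10 each; log2 difference 2.57 ± 0.35 (SE), adjusted p = 5.9e-06), and COL18A1, a basement membrane collagen, 109 ± 46.7 CPM and 26.0 ± 6.92 CPM (2.04 ± 0.13 (SE), adjusted p = 4.1e-11).

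In the terminal against the stem phase, the shares of all genes lower and higher were 20.7% and 22.5% in E77 Frontal, 19.6% and 21.6% in E77 Occipital, 16.2% and 17.9% in Anterior, and 17.8% and 21.5% in Posterior cultures of E42. Of the 27 adaptors 5 were lower and 3 higher in E77 Frontal, 2 and 5 in E77 Occipital, 15 and 1 in Anterior and 8 and 2 in Posterior cultures of E42. VCL, vinculin, which ties integrins to actin, had log2 fold changes of -1.56 in E77 Frontal, -2.20 in Anterior and -1.33 in Posterior cultures of E42, and did not pass in E77 Occipital (-0.48, adjusted p = 0.12). TNS3, a tensin, rose in E77 Frontal (0.98) and E77 Occipital (1.63). Of 19 ligands 9 were lower and 6 higher in E77 Frontal, 8 and 6 in E77 Occipital, 8 and 4 in Anterior and 8 and 5 in Posterior cultures of E42. FN1 fell in E77 Frontal (-3.65, adjusted p = 2.9e-08) and E42 Posterior (-2.61, adjusted p = 1.3e-05), and also in E77 Occipital (-1.59) and E42 Anterior (-1.39). Of 22 basement membrane genes 9 were lower and 4 higher in E77 Frontal, 7 and 3 in E77 Occipital, 10 and 6 in Anterior and 9 and 1 in Posterior cultures of E42. COL4A1, a chain of collagen IV, averaged 319 ± 36.1 CPM in terminal and 3155 ± 1233 CPM in stem libraries of E42 Anterior (SD, n = 3 each; log2 fold change -3.30 ± 0.23 (SE), adjusted p = 1.3e-10). NID2 rose in E77 Frontal (1.84, adjusted p = 0.0038) and E77 Occipital (4.11, adjusted p = 5.7e-07) and fell in E42 Posterior (-1.47, adjusted p = 0.023).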

How the data were processed

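Gene-level RNA-seq of 38 libraries was used. The authors deposited a count table and an RPKM table over the same genes. Reads were aligned with STAR and counted with featureCounts, per the submitters' processing notes, and the genome build is not given in the sources used here. The counts were whole and were used unrounded; RPKM served for comparing genes and for alternatives. Libraries were grouped by series and phase, 12 groups, from their titles and characteristics, and no library was unassigned. In edgeR 4.0.16 (R 4.3.3), genes passing filterByExpr with a minimum count of 10 were scaled by TMM and fitted with the quasi-likelihood model. The phase comparisons used group means (26 residual degrees of freedom). The age, region and difference comparisons had the day in vitro as a block (19 degrees of freedom). Of 55 same-day pairs of libraries, 44 deviated together with a correlation over 0.1 (median 0.224); the day comes from the labels. In each of 14 comparisons, adjusted p-values are Benjamini-Hochberg values across the 20794 genes fitted, with a threshold of 0.05.

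Alternatives were DESeq2 1.42.0 (size factors, and its Wald test), no low-count filter, no block, no E42 Anterior series (with the age comparisons then made between E77 Occipital and E42 Posterior, and, in an alternative added after the data were seen, between both E77 series and E42 Posterior), no day 1, limma 3.58.1 on log2(RPKM + 1) and log2(RPKM + 0.1), 1 value per day, and each library left out in turn. The fits were also run on simulated data with known changes. These were drawn with the same dispersion for every gene and without day or series effects. They therefore do not give error rates for days of a time course. Per-library values or ranges, in some or all series, are given for genes with a group mean of at least 20 CPM. These genes also passed a comparison over the average of series, an age or a region comparison. A few others named for their pattern were chosen after their values were seen. The genes and lists were chosen with earlier results of these data known. The values of 1 tested gene are not reported here.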

Additional observations from a re-analysis of the deposited data

Results flagged for a closer look

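ITGB8 was flagged in 1 library by a rule for outliers among 4 values. Its highest terminal level in E77 Occipital, 453 CPM on day 11, lay apart from the other 3 (324 to 331 CPM). These libraries are days of a time course and not replicates. Day 11 was the highest terminal day of ITGB8 in the other series too, with 490.2 CPM in E77 Frontal, 276 CPM in E42 Anterior and 260.4 CPM in E42 Posterior. Of 38 groups of 4 libraries checked this was the only one. The rule's chance rate of about 1 in 20 holds for replicates and does not apply to days in order.

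The terminal against stem change differed between ages, E77 minus E42 in log2 units, in 13 genes by edgeR's test of the difference. It was higher at E77 for ITGB2 (1.89), ITGA7 (1.13), ITGB1 (0.74), LAMA5 (0.56), LAMA4 (0.55), LAMC1 (0.46) and ITGA6 (0.39). It was lower at E77 for ITGA10 (-1.42), ITGA9 (-1.42), ITGA2 (-1.22), ITGAX (-1.12), ITGA3 (-1.08) and LAMA1 (-0.44). With both E77 series against E42 Posterior 8 of the 13 no longer passed: ITGB2 (0.21, edgeR adjusted p = 0.88), ITGA7 (0.56, 0.145), ITGB1 (-0.11, 0.52), LAMA5 (0.14, 0.45), ITGA10 (-0.90, 0.11), ITGAX (0.40, 0.62), ITGA3 (-0.43, 0.50) and LAMA1 (0.35, 0.11). Single libraries also ended the calls of LAMA1 (15 of 26), ITGAX (18), LAMA4 (4), ITGA3 (3) and ITGA6 (3).

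The region difference, Anterior minus Posterior at E42 less Frontal minus Occipital at E77, departed from 0 in 21 genes. Among laminins it was 6.79 for LAMA2, 5.61 for LAMC3, 3.32 for LAMB1, 1.84 for LAMA4, 1.28 for LAMC1 and 0.63 for LAMA1. Among integrins and ITGBL1 it was 6.32 for ITGBL1, 5.76 for ITGA11, 4.07 for ITGA9, 3.59 for ITGA8, 3.41 for ITGB2, 3.09 for ITGA5, 2.84 for ITGA1, 1.99 for ITGA10, 1.42 for ITGB4, 1.03 for ITGA4, 0.72 for ITGB1 and 0.53 for ITGAV. It was negative for ITGA3 (-1.29), ITGA6 (-0.80) and ITGB8 (-0.77). LAMA1 itself was -0.28 in Anterior minus Posterior and -0.91 in Frontal minus Occipital. The call of ITGBL1 ended without E77 Frontal day 20 or E77 Occipital day 1 or 20 (edgeR adjusted p = 1.0 each), that of ITGA11 without E77 Occipital day 8 (0.090) and that of ITGA4 without E77 Occipital day 5 (0.060). Fibroblast and meningeal markers summed to 13994 to 39286 CPM in E42 Anterior and to at most 274 CPM in the other series, and their part was not tested.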

How the results depend on the processing

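DESeq2 size factors in edgeR and the DESeq2 Wald test each ended 1 of 287 calls of single genes and reversed none. Leaving out each library in turn ended 213 of 4897 and reversed none. More calls were lost elsewhere: with 1 value per day 15 of 58 calls between phases ended. On log2(RPKM + 1), 245 calls stayed and 31 ended, and without day 1, 141 stayed and 15 ended. Without E42 Anterior 7 of 58 calls between phases ended and 1 changed sign, ITGB3 terminal against stem (0.09). The age comparisons, with 85 calls, were repeated in both of the following ways. Between E77 Occipital and E42 Posterior, which leaves out E77 Frontal too, 26 ended and 10 changed sign: LAMA4 (0.13) and ITGA4 (0.074) in stem libraries; LAMC1 (0.28), ITGA9 (1.10), ITGB2 (0.17), LAMA4 (0.13) and ITGA8 (0.51) in transition libraries; and ITGA9 (0.044), ITGA8 (1.84) and LAMC3 (0.19) in terminal libraries. Of these LAMC1, ITGA9 in transition and ITGA8 in terminal libraries passed in the new direction (edgeR adjusted p = 0.040, 0.022 and 6.7e-05). There the genes lower at E77 numbered 8 in stem, 4 in transition and 7 in terminal libraries, 13 were higher in terminal libraries, and 2 had a lower change at E77. With both E77 series against E42 Posterior, chosen after the data were seen, 19 ended and 18 changed sign. These were LAMC1 (0.31), ITGB2 (0.12), LAMA4 (0.24), ITGA8 (0.27), ITGB1 (0.085), ITGA4 (0.92) and ITGB3 (0.12) in stem libraries; LAMC1 (0.41), ITGA9 (0.36), LAMA4 (0.37), LAMA2 (0.12), ITGA8 (0.71) and LAMC3 (0.015) in transition libraries; ITGA8 (1.64) and LAMC3 (0.55) in terminal libraries; and the age differences of ITGB1 (-0.11), LAMA1 (0.35) and ITGAX (0.40). Of these LAMC1 and ITGA4 in stem, LAMC1, LAMA4 and ITGA8 in transition, and ITGA8 in terminal libraries passed in the new direction. Genes lower at E77 then numbered 6 in stem, 3 in transition and 5 in terminal libraries, and 15 were higher in terminal libraries. With 1 value per day, terminal against transition had 1 gene higher and 7 lower. In E42 Posterior, the genes higher in the terminal phase numbered 1 without the low-count filter and 5 without day 1, and those lower numbered 10 with log2(RPKM + 1). Of all genes in these settings, 3794 of 29990 and 3495 of 21098 were higher, and 3447 of 17827 were lower. In E77 Frontal 1 gene was higher in the terminal phase on either RPKM scale, and the region difference was negative for 6 genes on either. On log2(RPKM + 1) 3722 and 6642 of all 17827 genes were called so, and on log2(RPKM + 0.1) 3764 and 6670. From counts the region difference was negative for 4291 of all 20794 genes. With a library left out, the genes higher in the terminal phase numbered 1 to 3 in E42 Posterior and 1 to 2 in E77 Frontal, and those with a lower change at E77 numbered 3 to 6; the lowest came without E42 Posterior day 14, E77 Frontal day 1 or E77 Occipital day 17. The age differences of ITGAX and LAMA1 ended without any of 18 and 15 of 26 libraries. The cause of these changes was not tested.

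Without the replicate block for day, 15 of 155 calls ended, and no count moved by over 1.5 times. At E77 7 genes were higher and 13 lower in terminal libraries, where 3789 and 4298 of all 20794 genes were. In E77 Frontal against E77 Occipital 13 were higher and 3 lower, where 2678 and 1936 of all genes were. Among the calls that ended were ITGA8 in terminal libraries (-0.35, adjusted p = 0.60), LAMC1 in transition libraries (-0.32, adjusted p = 0.052) and the age differences of LAMA4 (0.51, adjusted p = 0.15) and LAMA5 (0.42, adjusted p = 0.37). On the RPKM scale the median of all genes in E42 Anterior minus Posterior was -0.131, against -0.056 from counts. Genes under about 1 CPM rest on few reads.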
